A study of Saccharomyces cerevisiae with 6 samples.

Results

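The genes described here serve the use of maltose, isomaltose and sucrose, sugars built of glucose units or of glucose and fructose. They were taken as the 9 genes named MAL11, MAL12, MAL13, MAL31, MAL32, MAL33, IMA1, IMA5 and SUC2 in the deposited table, which holds 7126 genes, and all 9 were among the 6330 genes that reached 10 counts in 3 or more libraries. RNA came from wild-type haploid BY4741, a laboratory strain of Saccharomyces cerevisiae in the S288c background, grown overnight in synthetic complete (SC) medium. The glycerol group (3 biological replicates) had glycerol as its sole carbon source, and the glucose group (3 biological replicates) had glucose. No other agent or allele separated the groups, and the labels name no maltose or sucrose in either medium. Poly(A) RNA was sequenced without strand information.

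In yeast, a MAL locus typically holds a permease that carries maltose into the cell, a maltase that splits it into glucose, and a zinc-cluster activator that turns both on when maltose is present. The IMA genes encode isomaltases, close relatives of the maltases that cut a different bond between glucose units. SUC2 encodes invertase, which splits sucrose into glucose and fructose. Glucose is known to repress SUC2 and genes of MAL loci through the repressor Mig1. The kinase Snf1 removes Mig1 from its sites when glucose runs low.

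The copies differ in how well a read can be assigned to them. The MAL1 locus near the right end of chromosome VII holds MAL11, MAL12 and MAL13, with IMA1 beside them, and the MAL3 locus near the right end of chromosome II holds MAL31, MAL32 and MAL33. The coding sequences of MAL12 and MAL32 are 1755 bases each and differ at 8 of them, an identity of 99.5%. Their longest identical stretch spans 492 bases, more than 3 read lengths of 150 bases. Of the 150-base windows in MAL12 and in MAL32, 49.5% occur once in the genome. In each of the other 7 genes, 100% of the windows do. The paper states that fragments were read from both ends, so a mate may hold a differing base where its partner does not. Windows of single reads leave this out. The stretch from base 211 to base 270 of the coding sequence is shown because it holds 3 of the 8 differing bases, in capitals, by which a read can be placed. Counted from 1 at the start codon, the changes from MAL12 to MAL32 are C222T, T249C and T258C, and they lie at chrVII:1076809-1076868 and chrII:805561-805620 of R64, plus strand.
MAL12: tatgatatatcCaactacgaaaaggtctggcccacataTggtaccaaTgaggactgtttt
MAL32: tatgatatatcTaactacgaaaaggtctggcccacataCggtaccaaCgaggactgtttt

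The other counterparts of the loci are more distant. The permease genes MAL11 and MAL31 share 61.9% of aligned bases, and the activator genes MAL13 and MAL33 share 71.2%. IMA1 and IMA5 share 66.4%. How the counting treated reads that fit several places is not given in the sources used here. IMA3 and IMA4, identical isomaltase genes with no window that occurs once, held 1 and 10 counts over all 6 libraries. Among the 77 genes of the table with no such window, the median was 2 counts over all libraries, against 6883 counts among the 5648 genes whose windows all occur once. How many reads of MAL12 and MAL32 were lost in this way was not tested.

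The promoters of the activator genes are shown because MAL13 and MAL33 differed most between the loci. Each runs from 250 bases before to 50 bases after the first base of the start codon, in RefSeq's R64 sequence, on the plus strand, at chrVII:1070043-1070342 and chrII:800273-800572. Capitals mark matches to the core of the Mig1 motif, searched on both strands as GCGGGG or GTGGGG, or with C first as CCGGGG or CTGGGG.
MAL13: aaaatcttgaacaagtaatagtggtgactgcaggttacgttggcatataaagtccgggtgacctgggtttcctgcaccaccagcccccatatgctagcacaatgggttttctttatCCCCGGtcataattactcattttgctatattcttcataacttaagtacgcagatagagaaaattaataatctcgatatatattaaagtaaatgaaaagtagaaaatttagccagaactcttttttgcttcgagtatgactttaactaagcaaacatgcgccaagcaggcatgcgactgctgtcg
MAL33: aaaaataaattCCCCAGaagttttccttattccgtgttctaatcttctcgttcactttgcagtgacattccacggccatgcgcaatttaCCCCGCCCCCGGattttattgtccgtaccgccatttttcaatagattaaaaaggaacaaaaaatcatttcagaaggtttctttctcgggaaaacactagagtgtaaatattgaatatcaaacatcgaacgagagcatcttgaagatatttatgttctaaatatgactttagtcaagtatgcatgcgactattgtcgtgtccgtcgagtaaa

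The MAL33 window holds 3 matches, beginning 239, 161 and 155 bases before the start codon, the last pair side by side without overlap. The MAL13 window holds 1, at 134 bases, and the IMA1 window 1, at 178 bases. The windows of MAL11, MAL12, MAL31, MAL32, IMA5 and SUC2 hold 0 within these 300 bases. Of 5999 promoter windows of the same length, 697 (11.6%) hold a match and 4 hold at least 3. The motif of the Mal activators was found in the windows of MAL33 and SUC2, and in 30.9% of all windows. These counts depend on the window. The 785 bases shared by MAL11 and MAL12 hold 1 Mig1 core and 3 Mal activator matches, and the 875 bases shared by MAL31 and MAL32 hold 2 and 3. In the 875 bases before the start codon, Mig1 cores number 4 for MAL33, 4 for SUC2, 4 for IMA1, 3 for MAL13 and 1 for IMA5. Of all genes with such a window, 38.1% hold at least 1 Mig1 core, 9.64% at least 2, and 20.2% at least 3 Mal activator matches. In windows of 785 bases these shares are 35.4%, 8.42% and 16.7%. The longer windows thus do not set MAL33 apart from SUC2 and IMA1 by its number of cores. The share of all genes with 3 or more Mig1 cores in the longer windows was not computed. The MAL12 and MAL32 windows are 98% identical. Those of MAL11 and MAL31 share 50% of aligned bases, and those of MAL13 and MAL33 share 48.3%. These letters are a description and not a measure of binding.

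Library totals lay between 16325044 and 20038052 counts for glycerol and between 15289163 and 17318484 for glucose. The 9 genes took 0.0581 to 0.0633% of the counts in glycerol libraries and 0.015 to 0.0193% in glucose libraries. Counts were divided by library size and TMM factor and are given as normalized CPM. These factors lay between 1.18 and 1.20 for glycerol and between 0.829 and 0.865 for glucose, so a value stands relative to the rest of the transcripts, and amounts per cell were not measured. LEU2, MET17 and URA3, which BY4741 lacks, had 0 counts in all 6 libraries. HIS3, of which the strain's allele is known to lack only a part, had 662 to 944 counts in glycerol libraries and 958 to 1216 in glucose libraries. The glycerol genes GUT1, GUT2 and STL1 had log2 fold changes of 3.14, 4.0 and 5.83, glycerol over glucose (adjusted p of at most 5.7e-12).

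All 6 MAL genes rose in glycerol, IMA5 fell, and IMA1 and SUC2 did not reach the threshold of 0.05 (Benjamini-Hochberg adjusted p, quasi-likelihood test of edgeR). Of all 6330 genes tested, 41.7% were higher and 40.1% lower in glycerol by the same rule. The median log2 fold change of the 9 genes was 1.70, against 0.03 for all tested genes. The glycerol libraries lay above all glucose libraries for the 6 MAL genes, as they did for 43.0% of all tested genes, and below them for IMA5, as for 40.8%. The groups overlapped for IMA1 and SUC2.

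**Figure D1:**
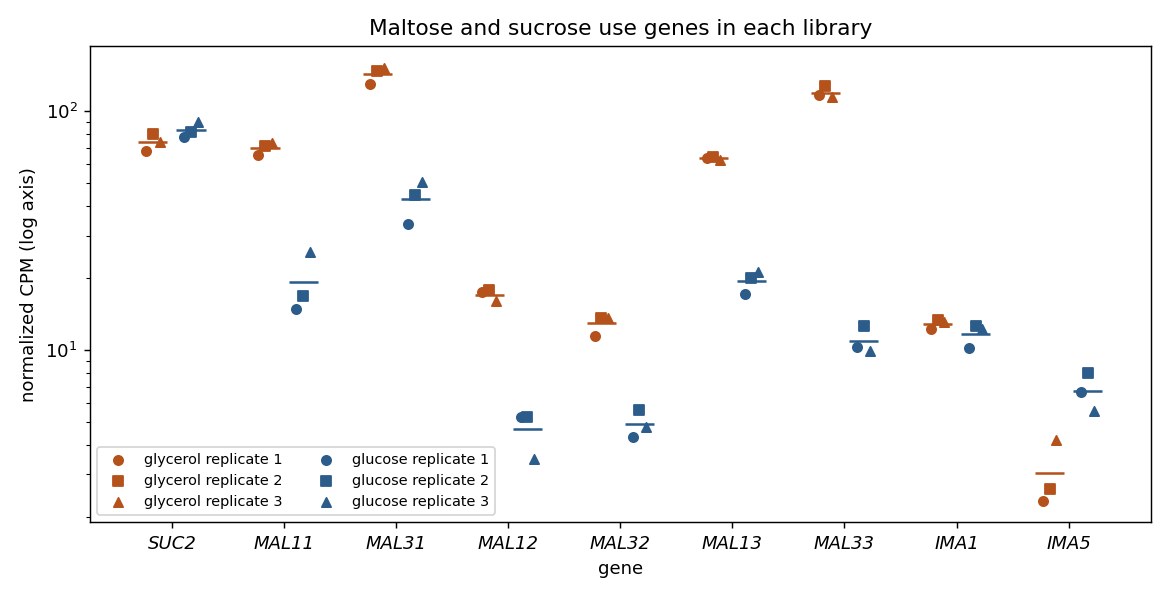
Normalized CPM on a log axis for each of the 9 genes, with glycerol libraries left and glucose libraries right, a marker for each replicate and a bar at each group's mean. The groups stand apart for the 6 MAL genes and IMA5 and overlap for SUC2 and IMA1.

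Both permease genes rose in glycerol. MAL31 (YBR298C, chromosome II from 802631 to 804475), a maltose permease, had 129.3, 147.5 and 151.9 CPM in glycerol libraries, against 33.7, 44.6 and 50.2 CPM in glucose libraries. Every glycerol library lay far above every glucose library. The log2 fold change was 1.74 (SE 0.135, edgeR adjusted p = 9.4e-09), a fold of 3.34. MAL11 (YGR289C, chromosome VII from 1073963 to 1075813), a general alpha-glucoside permease that also carries other sugars of this class, had 65.1, 71.2 and 73.5 CPM in glycerol libraries, against 14.8, 16.9 and 25.7 CPM in glucose libraries. Its glucose libraries were the more scattered, with replicate 3 highest. The log2 fold change was 1.87 (SE 0.16, adjusted p = 3.1e-08). The open reading frame YGR290W overlaps 332 bases of MAL11 on the other strand and had a log2 fold change of 2.02 (adjusted p = 8.8e-06). Without strand, reads there cannot be told apart.

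The maltase genes rose as well, from low counts. MAL12 (YGR292W, chromosome VII from 1076599 to 1078353) had 388, 341 and 379 counts in glycerol libraries, against 69, 75 and 46 counts in glucose libraries. In normalized CPM it averaged 17.02 ± 0.946 in glycerol and 4.64 ± 1.01 in glucose (SD, n = 3 each), and its log2 fold change was 1.87 (SE 0.172, edgeR adjusted p = 7e-08). MAL32 (YBR299W, chromosome II from 805351 to 807105) had 255, 262 and 323 counts in glycerol libraries, against 57, 80 and 63 in glucose libraries. Its mean was 12.9 ± 1.25 CPM in glycerol and 4.88 ± 0.636 CPM in glucose (SD, n = 3 each), and its log2 fold change was 1.39 (SE 0.169, adjusted p = 1.7e-06). For each maltase gene the glycerol libraries stood clear of the glucose libraries. With the counts of the near-identical copies added together, the log2 fold change was 1.65 (adjusted p = 2e-08).

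The activator genes stood apart from each other. MAL33 (YBR297W, chromosome II from 800523 to 801929) is the activator gene of the MAL3 locus. It had 116.1, 127.1 and 114.2 CPM in glycerol libraries, against 10.2, 12.5 and 9.91 CPM in glucose libraries. The log2 fold change was 3.45 (SE 0.122, edgeR adjusted p = 1.8e-12), a fold of 10.9 with a 95% interval from 9.12 to 13.1, the highest of the 9 genes. MAL13 (YGR288W, chromosome VII from 1070293 to 1071714) is the activator gene of the MAL1 locus. It had 63.5, 64.1 and 62.1 CPM in glycerol libraries, against 17.1, 20.1 and 21.1 CPM in glucose libraries. Its glycerol libraries lay close together and well above the glucose libraries. The log2 fold change was 1.70 (SE 0.111, adjusted p = 1.3e-09), a fold of 3.25. These are transcript levels, and whether either gene makes a working activator in this strain was not tested.

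SUC2 (YIL162W, chromosome IX from 37385 to 38983), the invertase gene, did not pass the test in either direction. It had 68.1, 79.8 and 73.8 CPM in glycerol libraries, against 77.8, 81.8 and 89.7 CPM in glucose libraries. Glycerol replicate 2 lay within the range of the glucose libraries. Reads were counted per gene, so different transcripts of SUC2 were not told apart. The log2 fold change was -0.17 (SE 0.103, 95% interval -0.39 to 0.05, edgeR adjusted p = 0.14). Its sign depends on the scaling, since with library totals and no composition factor it was 0.32 (adjusted p = 0.01), while the median of all tested genes moved to 0.52. Relative to that median, SUC2 lay at -0.20 under either scaling. The open reading frames next to SUC2 on chromosome IX had log2 fold changes of -0.73 for YIL163C and -0.88 for YIL161W (adjusted p = 9.2e-03 and 1.4e-05).

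The isomaltase genes did not follow the MAL genes. IMA1 (YGR287C, chromosome VII from 1067222 to 1068991), which cuts isomaltose, had 12.2, 13.4 and 13 CPM in glycerol libraries, against 10.2, 12.6 and 12.3 CPM in glucose libraries. The groups overlapped, and the log2 fold change was 0.14 (SE 0.142, 95% interval -0.17 to 0.44, edgeR adjusted p = 0.38). With no composition factor it was 0.63 (adjusted p = 5.1e-04), which is 0.11 above the median of all tested genes under either scaling. IMA5 (YJL216C, chromosome X from 24341 to 26086), a more distant isomaltase, had 52, 50 and 99 raw counts in glycerol libraries, against 88, 115 and 73 in glucose libraries, which overlap before scaling. In normalized CPM, where the groups did not overlap, these were 2.33, 2.60 and 4.16 in glycerol and 6.66, 8.01 and 5.52 in glucose. Glycerol replicate 3 lay nearest to the glucose libraries. The log2 fold change was -1.14 (SE 0.251, adjusted p = 6.3e-04), the least precise of the 9. REE1, on the other side of a gap of 611 bases from IMA5, was higher in glycerol by 0.83 on the log2 scale (adjusted p = 2.7e-06).

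**Figure D2:**
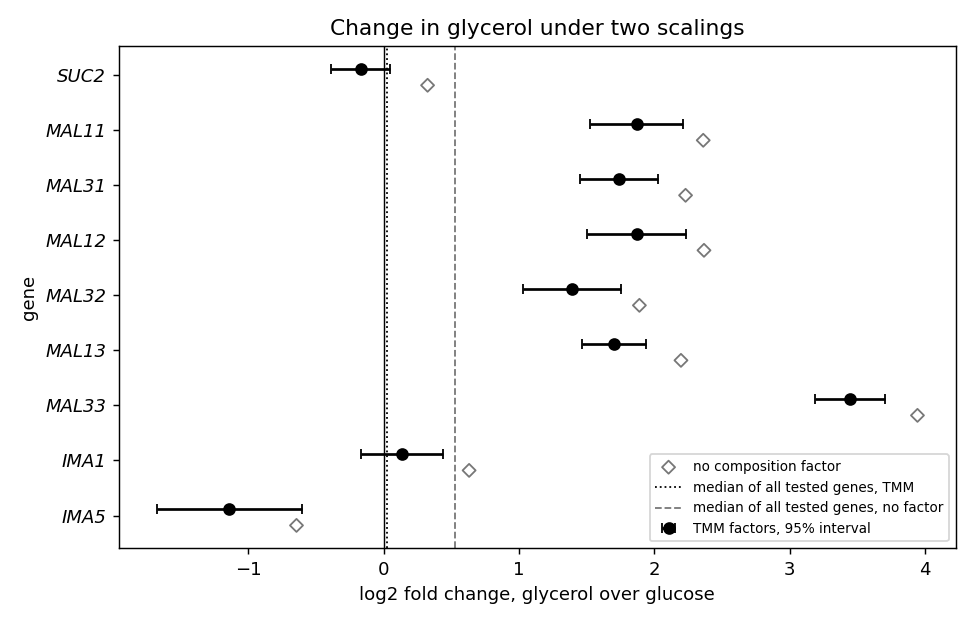
Log2 fold change of each gene, glycerol over glucose, with TMM factors (points with 95% intervals) and with no composition factor (diamonds). Dropping the factor moved the genes and the median of all tested genes (vertical lines, 0.03 and 0.52) together, and it turned the sign of SUC2 from -0.17 to 0.32.

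The genes of each locus lie side by side but moved by different amounts. At MAL1, the log2 fold changes along the chromosome were 0.14 for IMA1, 1.70 for MAL13, 1.87 for MAL11 and 1.87 for MAL12. At MAL3 they were 3.45 for MAL33, 1.74 for MAL31 and 1.39 for MAL32. BIO2, the biotin synthase gene 2281 bases outside IMA1, was lower in glycerol, at -1.33 (edgeR adjusted p = 1.8e-07). At the other end of MAL1, the open reading frame YGR293C lies 1531 bases from MAL12. It was higher in glycerol, at 1.75 (adjusted p = 1.5e-05). On the outer side of MAL33, the small open reading frame YBR296C-A lies 280 bases before its start codon and had 256, 152 and 212 counts in glycerol libraries, against 0, 0 and 1 in glucose libraries. Its part in the MAL33 values was not tested.

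**Figure D3:**
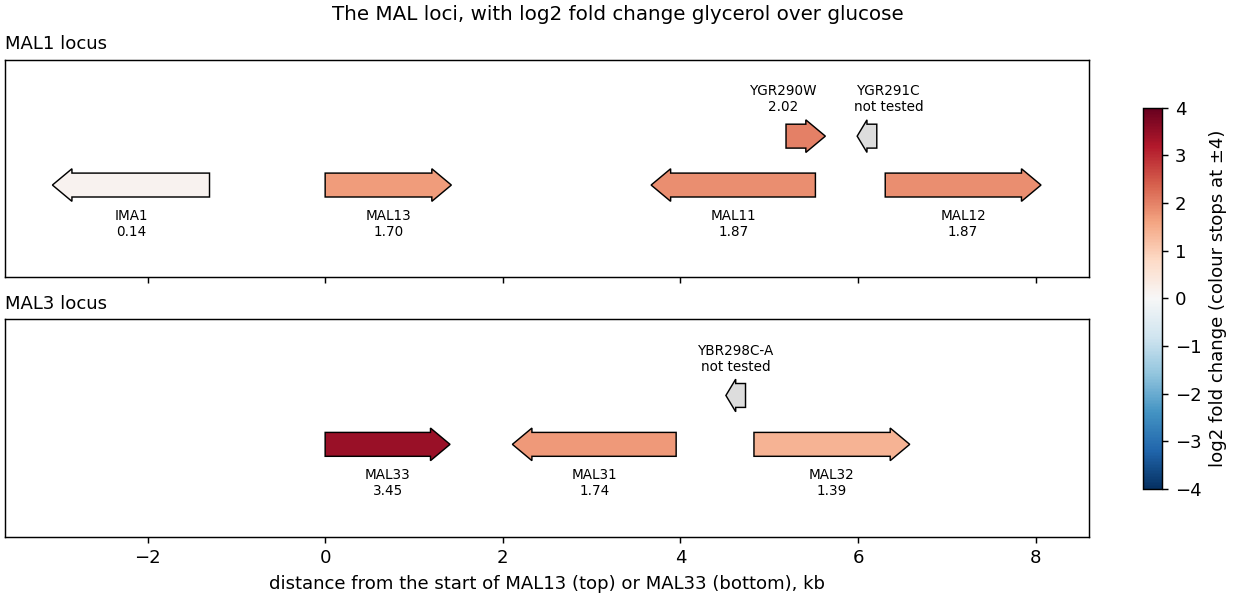
Genes of the MAL1 locus (top) and the MAL3 locus (bottom) as arrows in the direction of transcription, against distance in kb from the start of MAL13 or MAL33, coloured and labelled by log2 fold change, glycerol over glucose. MAL33, at 3.45, stands out from the other MAL genes, which lie between 1.39 and 1.87, and IMA1, at 0.14, is the palest of the tested genes.

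Ratios of the MAL1 copy to the MAL3 copy within a library do not depend on scaling. For the activators, the log2 ratio of MAL13 to MAL33 in counts per kb was -0.89, -1.0 and -0.89 in glycerol libraries, against 0.73, 0.66 and 1.07 in glucose libraries. MAL33 was thus the more abundant activator transcript in every glycerol library and MAL13 in every glucose library. The difference was -1.75, with groups that did not overlap (two-sided exact permutation test, p = 0.1, the smallest that 3 against 3 libraries allow, and 0.3 after adjustment over the 3 ratios). For the permeases, MAL11 to MAL31 had a mean log2 ratio of -1.03 ± 0.034 in glycerol and -1.19 ± 0.218 in glucose (SD, n = 3 each), so MAL31 was the more abundant copy with either carbon source (exact permutation p = 0.4 for the difference of 0.15). For the maltases, MAL12 to MAL32 was 0.60, 0.38 and 0.23 in glycerol libraries, against 0.27, -0.09 and -0.45 in glucose libraries, with a difference of 0.49 and overlapping groups (exact permutation p = 0.2).

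**Figure D4:**
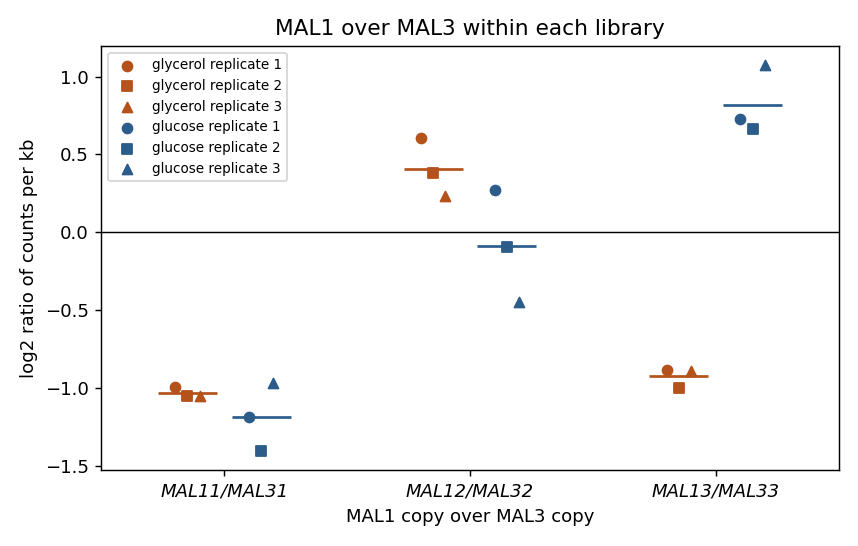
Log2 ratio of counts per kb, MAL1 copy over MAL3 copy, in each glycerol library (left of each pair) and glucose library (right), with bars at the means. The MAL13/MAL33 ratio lies between -1.0 and -0.89 in glycerol and between 0.66 and 1.07 in glucose, and the other ratios overlap between groups.

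The order of the transcripts by level per length changed with the carbon source. In glycerol, normalized CPM per kb averaged 84.7 ± 4.94 for MAL33, 77.5 ± 6.49 for MAL31, 46.2 ± 3.64 for SUC2, 44.5 ± 0.739 for MAL13 and 37.8 ± 2.35 for MAL11 (SD, n = 3 each). MAL12 followed at 9.70, MAL32 at 7.34, IMA1 at 7.25 and IMA5 at 1.74. Libraries of neighbours in this order overlapped for MAL33 and MAL31, for SUC2 and MAL13, and for MAL32 and IMA1. In glucose, SUC2 led at 52.0 ± 3.78, followed by MAL31 at 23.2 ± 4.55, MAL13 at 13.7 ± 1.46 and MAL11 at 10.3 ± 3.13 (SD, n = 3 each). MAL33 was at 7.74, IMA1 at 6.59, IMA5 at 3.86, MAL32 at 2.78 and MAL12 at 2.65. Here SUC2 stood clear of MAL31, and MAL31 of MAL13, while all lower neighbours overlapped except IMA1 and IMA5. Among all tested genes, MAL33 was at the 71.0 percentile of this level in glycerol and the 14.0 percentile in glucose, and SUC2 at 52.3 in glycerol and 57.8 in glucose. The levels of MAL12 and MAL32 may be too low in both orders, since only 49.5% of their windows occur once in the genome. How far lost reads would move their places was not tested.

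Other genes of alpha-glucoside use moved in both directions. Of 7 relatives, 4 rose, 1 fell and 2 (IMA3 and IMA4) had too few counts to be tested, where 41.7% of all tested genes were higher and 40.1% lower, with a median log2 fold change of 1.77 over the 5 tested. ZNF1, a zinc-cluster regulator of carbon use, had 36.8, 49.3 and 47.2 CPM in glycerol libraries, against 3.10, 4.18 and 5.90 CPM in glucose libraries, a log2 fold change of 3.34 (SE 0.191, edgeR adjusted p = 2.9e-10). YPR196W, which resembles the MAL activators, rose by 1.49, and the alpha-glucoside permease genes MPH2 and MPH3 by 2.48 and 1.77. MPH2 and MPH3 are 98.7% identical and are not independent. Only 4.94% of the windows of MPH2 and 3.73% of those of MPH3 occur once in the genome, so reads may be split between them or lost. The isomaltase gene IMA2, 89.1% identical to IMA1, fell by 0.76 on the log2 scale (adjusted p = 9.5e-05).

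Of 23 genes of glucose sensing and repression, 14 rose, 5 fell and 4 did not pass, where 41.7% of all tested genes were higher and 40.1% lower, with a median log2 fold change of 0.62, against 0.03 for all tested genes. MIG1, the repressor named above, rose by 2.15 (SE 0.119, edgeR adjusted p = 2.2e-10), while its relative MIG2 had -0.01 (adjusted p = 0.94). NRG1, a further repressor of glucose-repressed genes, rose by 2.67. SNF1, the kinase, rose by 0.43, and its activating subunit gene SNF4 fell by 2.02. HXK2, the hexokinase gene that also takes part in glucose repression, fell by 3.02, whereas the other genes of hexose phosphorylation, HXK1 and GLK1, rose by 2.55 and 1.25.

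Across the 6 libraries, the profile of SUC2 was most like those of VPS70, HOG1 and CWP2, with root mean square distances of 0.0424, 0.044 and 0.0486 in log2 CPM centred on each gene's mean. That of MAL33 was most like those of HMX1, NGL3 and RTC2, at 0.105, 0.108 and 0.119. With libraries from glycerol and glucose only, this distance mostly picks genes of like fold change. The log2 fold changes were -0.11, -0.19 and -0.12 for the genes nearest SUC2, and 3.49, 3.34 and 3.36 for those nearest MAL33. Shared regulation was not tested.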

How the data were processed

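RNA from BY4741 in glycerol or glucose medium was measured in 6 libraries, 3 per carbon source, grouped by their labels. The authors deposited a table of raw read counts per gene and FPKM values, which are scaled by gene length and library size. The submitters' processing notes name fastp 0.20.1, HISAT2 2.2.1, featureCounts 2.0.1, DESeq2 and build R64, and the table's coordinates for the 9 genes equal those of RefSeq's R64. Columns of the authors' own group means, fold changes and p-values were not used.

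A gene entered the fit when 3 or more libraries held 10 counts or more, which left 6330 genes. Their counts, with TMM factors, were fitted in edgeR 4.0.16 (R 4.3.3), and p-values of its quasi-likelihood test were adjusted by Benjamini-Hochberg across the whole table, with calls made under 0.05. Standard errors came from the fold change and the F value. The steps were tested on simulated data of 6275 genes, with 100 changed by a log2 of 1 and 100 by a log2 of 2, balanced in direction. Of these, 97% and 100% were called, and 3.9% of calls fell on unchanged genes. The simulation held no shift in composition, so it does not test the scaling. Locus ratios used a pseudocount of 0.5 counts. The alternatives used DESeq2 1.42.0, limma 3.58.1 on log2(FPKM + 1), other scalings, no filter, a replicate block, left-out libraries and summed copies. Sequences were compared with Biopython 1.88 by global alignment, and figures were drawn with matplotlib 3.10.9.

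The members and gene lists were chosen with earlier results of these data known. Genes named besides the 9 are those of fixed lists, neighbours or overlapping genes, and the 3 nearest profiles of SUC2 and of the other member with the largest change.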

Additional observations from a re-analysis of the deposited data

How the results depend on the processing

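The 6 MAL genes stayed called higher in glycerol, and IMA5 lower, under every alternative tried, including each library left out in turn. With no composition factor, 8 of the 9 genes were called higher, SUC2 was at 0.32, and the median of the 9 genes was 2.197. With limma on log2(FPKM + 1), which understates the change of low genes, that median was 1.56. With a library left out, the log2 fold change of SUC2 lay between -0.21 and -0.09 and that of IMA5 between -1.42 and -0.95. The replicate numbers were not taken as pairs. Same-numbered libraries correlated at 0.17, 0.06 and 0.20 over all tested genes in their deviations from the group means. When limited to 5667 genes averaging 100 counts or more, they correlated at 0.25, 0.11 and 0.29. These correlations were positive in either set of genes. Each of the 6 libraries correlated best with its own number, a hint from the data and not the design. With the replicate block the median was 1.71 and 5229 genes were called in all, in place of 5176, and no call among the 9 genes changed. With same-numbered libraries as pairs, a replicate block added after seeing the data, MAL12/MAL32 was higher in glycerol in 3 of 3 pairs and MAL13/MAL33 in 0 of 3 (exact sign-flip p = 0.25 for each, the smallest that 3 pairs allow), and MAL11/MAL31 in 2 of 3 (exact p = 0.5). Counts were low for IMA5, with 50 to 115 in each library, and for MAL12 and MAL32 in glucose, with 46 to 80.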
